A study of Homo sapiens with 12 samples.

Results

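The hypoxia-inducible factor (HIF) system is described here through 8 genes: the alpha subunits HIF1A and EPAS1, their partner ARNT, the prolyl hydroxylases EGLN1, EGLN2 and EGLN3, the asparaginyl hydroxylase HIF1AN, and VHL, which recognises hydroxylated HIF alpha for degradation. They were picked by symbol, and each matched 1 of the 59577 genes of the deposited table. The RNA came from H1299, an established human cell line labelled lung adenocarcinoma. The control group was held in 21% oxygen, 5% CO2 and 74% nitrogen (normoxia, n = 6), and the treated group in 60% oxygen, 5% CO2 and 35% nitrogen for 24 h (hyperoxia, n = 6). Both groups are the same unmodified line, and no label says whether samples of a group were separate cultures, so the p-values cover no more than the variation among these samples, possibly technical.

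Values are TPM, a measure scaled for gene length and for the sample's total. Sums per sample ran from 996138 to 998797 TPM. TPM keeps no depth, so the depth behind each value is unknown. On the leading principal component, which held 20.7% of the variance, hyperoxia samples lay between 11.3 and 19.8 and normoxia replicates 1 to 3 between -9.44 and -5.12, while normoxia replicates 4 to 6 lay further out, between -33.3 and -18.7. Comparisons were therefore repeated without either set of 3, and for named genes a value from these repeats is given where a call ended; no call of HIF1A, ARNT, EGLN1, EGLN2, HIF1AN or VHL did. Of 15 lung epithelium and adenocarcinoma markers, only KRT8, KRT18, KRT7 and the mesenchymal marker VIM reached a mean of 1 TPM. The epithelial keratins KRT8 and KRT18 averaged 603 and 955 TPM in normoxia and 592 and 947 TPM in hyperoxia. KRT7 averaged 3.65 TPM in normoxia and 3.66 TPM in hyperoxia. VIM averaged 3351 TPM in normoxia and 3004 TPM in hyperoxia. The other epithelial markers EPCAM, CDH1 and KRT19 averaged 0.157, 0.04 and 0.173 TPM in normoxia. In hyperoxia they averaged 0.178, 0.028 and 0.238 TPM. SFTPC, SFTPA1 and SCGB1A1 were at 0 in all 12 samples. The lung lineage factor NKX2-1 averaged 0.295 TPM in normoxia and 0.53 TPM in hyperoxia. Of 13 blood, endothelial and fibroblast markers only CD68 and COL1A1 reached that mean, and the list summed to between 41.2 and 51.7 TPM in normoxia and between 40.5 and 53.5 TPM in hyperoxia.

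In oxygenated cells the EGLN enzymes use oxygen, iron and 2-oxoglutarate to hydroxylate proline residues of HIF alpha. VHL, the substrate receptor of a ubiquitin ligase, binds the hydroxylated form and marks it for the proteasome, while HIF1AN hydroxylates an asparagine near the C terminus and so blocks recruitment of coactivators. When oxygen falls, HIF alpha escapes both marks, pairs with ARNT and drives genes of glycolysis, angiogenesis and pH control. That control acts on protein, which RNA sequencing does not measure.

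The sites on which the sensors act are shown first, because both alpha subunits carry them and the hydroxylases and VHL act through them. The coding stretches below are from GENCODE 29, 5′ to 3′, with the codon of the hydroxylated residue in capitals.
HIF1A, first proline (codon 402): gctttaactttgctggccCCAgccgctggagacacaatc
EPAS1, first proline (codon 405): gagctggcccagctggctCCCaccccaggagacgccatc
HIF1A, second proline (codon 564): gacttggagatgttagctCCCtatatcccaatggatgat
EPAS1, second proline (codon 531): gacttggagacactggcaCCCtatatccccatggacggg
HIF1A, asparagine (codon 803): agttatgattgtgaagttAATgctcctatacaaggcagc
EPAS1, asparagine (codon 847): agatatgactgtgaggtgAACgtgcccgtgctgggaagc
Over the 39 bases of each stretch, the paralogs shared 24 bases at the first proline, 30 at the second proline and 26 at the asparagine. Each stretch was found by the motif around its residue in the longest reading frame of the transcript, which has 826 codons for HIF1A and 870 for EPAS1.

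The comparison asks which of these transcripts differed after a day at 60% oxygen. Of the 8 genes, 7 reached the mean of 1 TPM needed for testing. EPAS1 was called higher in hyperoxia and HIF1A was called lower, although the deposited values of HIF1A contradict each other; ARNT, EGLN1, EGLN2, HIF1AN and VHL did not pass. Among all 14520 genes tested with limma at a Benjamini-Hochberg adjusted p under 0.05, 11.7% were called higher and 5.63% lower, 17.3% in all. Without HIF1A, 1 of 6 was called higher and none lower by limma, and none was lower at an unadjusted p under 0.05 either. The median log2 fold change was 0.03 over the 7 tested members, HIF1A included, and 0.03 over all tested genes.

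**Figure D1:**
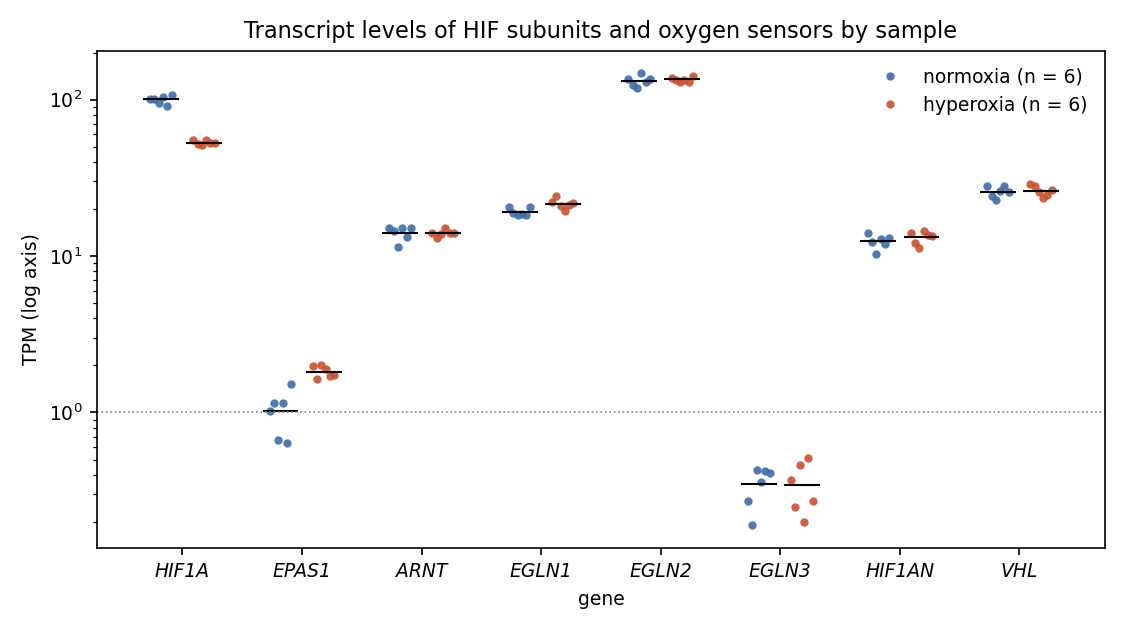
TPM of each gene in each sample on a log axis (points; blue, normoxia, n = 6; red, hyperoxia, n = 6), with group means as bars and the 1 TPM minimum as a dotted line. HIF1A, whose deposited values disagree, and EPAS1 show groups that do not overlap, which held for 8.78% of all tested genes. EGLN3 lies below 1 TPM in all 12 samples.

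HIF1A (ENSG00000100644) encodes the oxygen-regulated alpha subunit found in most cells. Its sample columns held 91.3, 101.6 and 107.5 TPM (lowest, median and highest) in normoxia and 51.0, 52.9 and 55.3 TPM in hyperoxia. The groups did not overlap, which held for 8.78% of all tested genes, and the means were 100.4 ± 5.87 and 53.2 ± 1.64 TPM (SD, n = 6 each). On the log2(TPM + 1) scale the columns differed by -0.90 (SE 0.04, limma, Benjamini-Hochberg adjusted p = 1.18e-08).

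The group means deposited for HIF1A equal the means of these columns, but its fold change, log2 fold change and p-values do not follow from the columns or from each other. In the authors' deposited table its fold change was 0.29, whose log2 is -1.79, while the log2 fold change printed beside it was -1.77; the log2 ratio of the mean TPM was -0.92. The authors' deposited table gives HIF1A a p of 0.19 with an adjusted p of 0.00349, and only 2 genes of the table have an adjusted p below their p. Among genes with a mean of at least 1 TPM, 28 others had a p within 0.001 of that of HIF1A, and the authors' adjusted p ran from 0.348 to 1. Among those with agreeing deposited values as well as that mean, 41 others had an adjusted p within 0.0001 of that of HIF1A. The authors' p of these 41 ran from 0.000537 to 0.000578.

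HIF1A is 1 of 78 genes of the table with such disagreements. Among 5783 genes with a mean of at least 20 TPM and agreeing values, the authors' log2 fold change minus the log2 TPM ratio had a median of -0.02, with 99% of genes between -0.24 and 0.17. The gap for HIF1A was -0.85, and 7 of the 5783 genes lay as far from 0. Which of its deposited numbers came from the reads was not tested. The fall in its columns is therefore given as what the columns hold, and this caution covers every value that uses them.

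**Figure D2:**
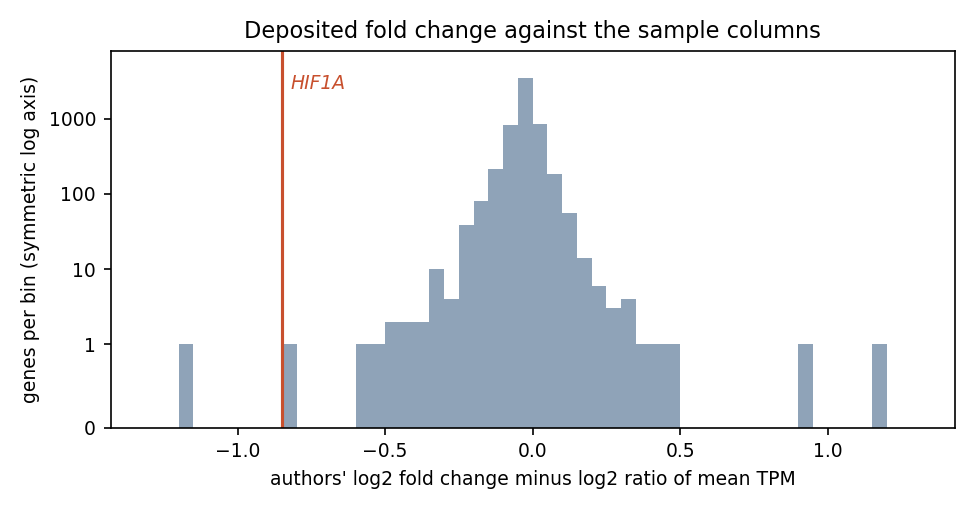
Histogram of the authors' log2 fold change minus the log2 ratio of mean TPM (horizontal axis) for genes with a mean of at least 20 TPM and agreeing deposited values, with genes per bin on a symmetric log axis. The vertical line marks HIF1A at -0.85, outside the central 99% of genes; 4 genes lie beyond the axis.

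Antisense transcripts lie over the HIF1A locus in GENCODE 29, and whether the libraries kept strand is not settled by the labels. HIF1A-AS3 (ENSG00000258667) measured 5.48, 6.48 and 7.92 TPM in normoxia and 5.86, 7.49 and 9.63 TPM in hyperoxia (lowest, median, highest). Its groups overlapped, and its log2 fold change was 0.17 (SE 0.11, limma, Benjamini-Hochberg adjusted p = 0.30). Reads of HIF1A and its antisense partners cannot be told apart if strand was not used in counting.

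EPAS1 (ENSG00000116016) encodes HIF-2 alpha, the alpha subunit best known from endothelium, kidney and lung. It was close to the minimum for testing, at 0.64, 1.085 and 1.53 TPM in normoxia and 1.63, 1.815 and 2.01 TPM in hyperoxia (lowest, median and highest). Every hyperoxia sample lay above every normoxia sample, with the nearest pair 1.53 and 1.63 TPM. Groups that do not overlap, in either direction, were seen for 8.78% of all tested genes. The means were 1.03 ± 0.33 and 1.82 ± 0.16 TPM (SD, n = 6 each), a 1.78-fold ratio. EPAS1 rose by 0.49 on the log2(TPM + 1) scale (SE 0.12, 95% interval 0.23 to 0.75, limma, Benjamini-Hochberg adjusted p = 0.0133).

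That scale compresses a gene at this level: with a pseudocount of 0.1 TPM the difference was 0.82, and the authors' deposited table gives EPAS1 a log2 fold change of 0.98 with an adjusted p of 4.05e-13. The samples furthest below were normoxia replicates 5 and 3, at 0.64 and 0.67 TPM. EPAS1 lost its call without normoxia replicates 1 to 3 (0.44, limma, Benjamini-Hochberg adjusted p = 0.0791) and kept it without replicates 4 to 6 (0.54, limma, Benjamini-Hochberg adjusted p = 0.0177). It was listed above 0 in all 12 samples, and its mean stood at percentile 5.58 of tested genes.

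The genes whose log2(TPM + 1) profile over the 12 samples was most like that of EPAS1 were ZNF354B (Pearson r = 0.97), KPNA5 (r = 0.96) and TSC22D2 (r = 0.95). These are descriptions of 12 samples from 2 groups, chosen as the highest among all tested genes. ZNF354B averaged 6.34 TPM in normoxia and 8.51 TPM in hyperoxia, and KPNA5, an importin alpha, 6.04 and 7.78 TPM. TSC22D2 averaged 11.1 and 14.7 TPM.

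As the columns stand, HIF1A TPM was 70.2 to 143 times EPAS1 TPM in normoxia samples and 25.4 to 32.1 times in hyperoxia samples. EPAS1 made up 0.694% to 1.40% of their summed TPM in normoxia and 3.03% to 3.79% in hyperoxia. Both terms move with the HIF1A columns, so the shift in this ratio carries their caution. Against ARNT, whose deposited values agree, the ratio of ARNT to EPAS1 ran from 9.93 to 20.6 in normoxia and from 6.89 to 8.32 in hyperoxia.

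ARNT (ENSG00000143437), the constitutive beta subunit that pairs with either alpha subunit, measured 11.4, 14.8 and 15.2 TPM in normoxia and 13.1, 14.03 and 15.1 TPM in hyperoxia. The ranges of the groups overlapped almost entirely, and normoxia replicate 3 was the lowest sample. The log2 fold change was -0.00 with a 95% interval from -0.14 to 0.14 (limma, Benjamini-Hochberg adjusted p = 0.996). Its paralog ARNT2 averaged 0.035 TPM in normoxia and was listed at 0 in all hyperoxia samples, and HIF3A, the third alpha subunit, was listed at 0 in all 12 samples.

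**Figure D3:**
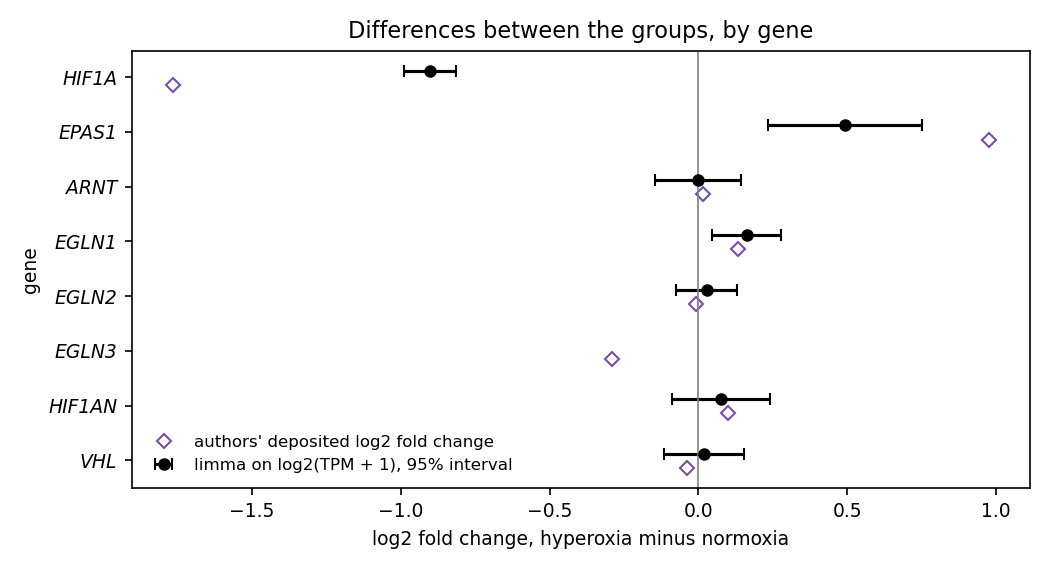
Log2 fold change of hyperoxia against normoxia for each gene: black points with bars are limma estimates on log2(TPM + 1) with 95% intervals, and open diamonds are the authors' deposited log2 fold changes. The intervals of HIF1A, EPAS1 and EGLN1 exclude 0 before adjustment, EGLN3 was not tested, and the 2 values for HIF1A lie far apart.

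EGLN2 (PHD1, ENSG00000269858) was the most abundant of the prolyl hydroxylase transcripts. It measured 119, 133 and 147 TPM in normoxia and 130.1, 134 and 142 TPM in hyperoxia (lowest, median, highest). The hyperoxia range lay inside the normoxia range. The log2 fold change was 0.03 with a 95% interval from -0.07 to 0.13 (limma, Benjamini-Hochberg adjusted p = 0.744). The readthrough gene RAB4B-EGLN2, which shares exons with EGLN2 and could split its reads, averaged 3.58 ± 1.18 and 3.89 ± 0.46 TPM (SD, n = 6 each), and its adjusted p was 0.623 in the same limma fit.

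EGLN1 (PHD2, ENSG00000135766) is regarded as the main enzyme that sets HIF alpha stability in oxygenated cells, and it is itself a HIF target gene. It measured 18.3, 18.8 and 20.6 TPM in normoxia and 19.4, 21.5 and 24.2 TPM in hyperoxia. All hyperoxia samples but replicate 4 lay above the highest normoxia sample. The difference was 0.16 on the log2(TPM + 1) scale (SE 0.05, 95% interval 0.05 to 0.28) and narrowly missed the threshold (limma, Benjamini-Hochberg adjusted p = 0.0545).

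The EGLN1 result sits at the threshold. Its limma Benjamini-Hochberg adjusted p was 0.0263 without hyperoxia replicate 4, 0.0458 without normoxia replicate 1, 0.0472 without normoxia replicate 6 and 0.0421 with a minimum mean of 5 TPM. Over all alternatives it ran from 0.0263 to 0.184. The authors' deposited table lists EGLN1 at a log2 fold change of 0.13 with an adjusted p of 0.0255.

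EGLN3 (PHD3, ENSG00000129521), the family member most strongly induced by HIF in many cells, was below the minimum for testing. It measured 0.19, 0.385 and 0.43 TPM in normoxia and 0.20, 0.32 and 0.51 TPM in hyperoxia. The groups overlapped throughout, with means of 0.35 ± 0.10 and 0.34 ± 0.12 TPM (SD, n = 6 each). With no filter on low values its log2 fold change was -0.01 (SE 0.07, limma, Benjamini-Hochberg adjusted p = 0.982). The log2(TPM + 1) scale compresses a gene at this level, so the small SE does not mean a precise estimate. The authors' deposited table, whose fold changes are not on that scale, gives EGLN3 a log2 fold change of -0.29 with an adjusted p of 0.55.

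The summed TPM of the 3 prolyl hydroxylases was 152 ± 10.4 in normoxia and 157 ± 5.22 in hyperoxia (SD, n = 6 each), and the groups were not separated (two-sided exact permutation test, 924 arrangements, p = 0.348, adjusted over 4 measures p = 0.465). EGLN2 made up 87.1% ± 0.81 of that sum in normoxia and 86.0% ± 0.93 in hyperoxia. EGLN1 made up 12.7% ± 0.81 and 13.8% ± 0.92, and EGLN3 0.229% ± 0.068 and 0.220% ± 0.084 (SD, n = 6 each). Hyperoxia minus normoxia was 1.14 percentage points for the EGLN1 share (exact permutation p = 0.0238, adjusted p = 0.0649) and -1.13 for the EGLN2 share (exact permutation p = 0.0325, adjusted p = 0.0649). Because EGLN3 is so small a part, the EGLN1 and EGLN2 shares mirror each other and are not separate results. Neither share passed after adjustment, and both passed without hyperoxia replicate 4, whose EGLN1 share of 12.6% was the lowest in its group (exact permutation adjusted p = 0.00866 and 0.013). Without normoxia replicates 4 to 6 the EGLN1 share differed by 0.649 percentage points and the EGLN2 share by -0.664. Without replicates 1 to 3 they differed by 1.63 and -1.60, and neither share passed in either case (exact permutation adjusted p = 0.397 and 0.119).

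**Figure D4:**
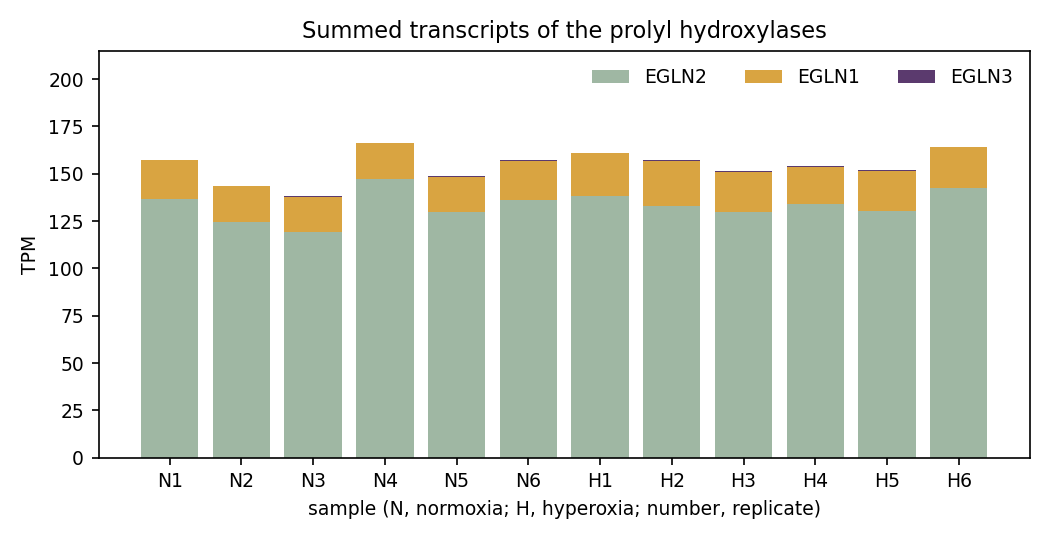
Stacked TPM of EGLN2, EGLN1 and EGLN3 in each of the 12 samples (N, normoxia; H, hyperoxia). EGLN2 fills most of every bar, EGLN1 11.2% to 15.4% of it, and EGLN3 at most 0.336%.

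HIF1AN (FIH, ENSG00000166135), the asparaginyl hydroxylase, measured 10.3, 12.6 and 14.1 TPM in normoxia and 11.3, 13.5 and 14.5 TPM in hyperoxia. The groups overlapped, and replicate 3 was the lowest sample in both. The log2 fold change was 0.08 with a 95% interval from -0.09 to 0.24 (limma, Benjamini-Hochberg adjusted p = 0.538). The authors' deposited table lists HIF1AN at 0.10 with an adjusted p of 0.0137, so it passed there and not in the limma fit. In that table EPAS1, EGLN1 and HIF1AN had an adjusted p under 0.05, beside HIF1A with its disagreeing values, while 30.0% of all tested genes did.

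VHL (ENSG00000134086) measured 22.8, 26.0 and 28.2 TPM in normoxia and 23.4, 26.2 and 28.8 TPM in hyperoxia. Its groups overlapped almost fully. The log2 fold change was 0.02 with a 95% interval from -0.12 to 0.15 (limma, Benjamini-Hochberg adjusted p = 0.877). ELOB and ELOC, the elongins that hold VHL in its ubiquitin ligase, averaged 245 and 213 TPM in normoxia and 225 and 214 TPM in hyperoxia, and neither passed, nor did the scaffold CUL2 or the ring subunit RBX1.

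By mean TPM in normoxia the order was EGLN2, HIF1A, VHL, EGLN1, ARNT, HIF1AN, EPAS1 and EGLN3. The place of HIF1A in either group rests on its columns and carries their caution. Only the neighbours ARNT and HIF1AN had overlapping sample ranges there. In hyperoxia the order was the same, and VHL and EGLN1 overlapped as well as ARNT and HIF1AN. Among tested genes ordered by mean TPM, EGLN2 stood at percentile 92.9, VHL at 66.7, EGLN1 at 60.3, ARNT at 50.4 and HIF1AN at 48.0.

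HIF binds DNA at a core of ACGTG or GCGTG, so the promoters of the members were searched for both on both strands, as a description of sequence. RefSeq promoters of 300 bases (250 before and 50 after the start, GRCh38.p14) were at hand for 7 of the 8 genes, in 9 entries. Of all 35116 such promoters, 21.4% held ACGTG, 36.5% held GCGTG and 48.4% held either, counting both strands. EGLN1, EGLN2, EPAS1 and HIF1A had a match, and ARNT, HIF1AN and EGLN3 had none in this window. Those of the called gene EPAS1, of EGLN1 at the edge of the threshold and of the abundant EGLN2 are shown with the motif in capitals, 5′ to 3′ on the gene's strand.
EGLN1, chr1:231422288-231422325, minus strand: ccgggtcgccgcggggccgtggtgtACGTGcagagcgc
EGLN2, chr19:40799118-40799172, plus strand: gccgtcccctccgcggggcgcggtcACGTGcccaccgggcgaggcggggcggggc
EPAS1, chr2:46297265-46297319, plus strand: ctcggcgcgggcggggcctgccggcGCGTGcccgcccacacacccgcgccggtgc
The EGLN1 motif begins 13 bases before the start and the EGLN2 motif 48 bases before it. In EGLN2 the motif overlaps its own reverse complement, which begins 49 bases before the start.

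The 30 cofactors, paralogs and protein regulators of HIF include coactivators, VHL ligase subunits, chaperones and other ubiquitin ligases. Of the 27 that were tested, 3 were called higher and 2 lower, against 11.7% and 5.63% of all tested genes, which is 11.1% and 7.41% of the list, and the list's median log2 fold change was 0.02. HSP90AA1, a chaperone that stabilises newly made HIF1A protein, rose from 1798 ± 150.2 to 2150 ± 186 TPM and its cochaperone PTGES3 (p23) from 489 ± 8.12 to 534 ± 26.6 TPM (SD, n = 6 each). CITED2, which competes with HIF alpha for coactivators, rose from 28.5 ± 3.01 to 33.4 ± 0.79 TPM. RACK1, an adaptor that also sits on the ribosome, fell from 3512 ± 108 to 3243 ± 109 TPM, and the ubiquitin ligase SIAH1, which acts on EGLN proteins and is named here on account of its values, from 12.7 ± 1.59 to 10.4 ± 0.69 TPM.

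These changes were small and several sit near the threshold. With median-of-ratios scaling PTGES3 was at 0.10 and HSP90AA1 at 0.23 on the log2 scale, and neither passed (limma, Benjamini-Hochberg adjusted p = 0.155 and 0.0691). RACK1 was at -0.04 after quantile normalisation (adjusted p = 0.248), and it also lost its call in the fit without trend. With no filter on low values HSP90AA1, RACK1 and SIAH1 lost their calls, as did HSP90AA1 in the exact rank-sum test. CITED2 missed the threshold without normoxia replicate 2 (adjusted p = 0.0504). Leaving out normoxia replicates 4 to 6 ended the calls of HSP90AA1, PTGES3 and CITED2 (adjusted p = 0.108, 0.0894 and 0.0552), and leaving out replicates 1 to 3 those of PTGES3 and RACK1 (0.113 and 0.135). The SIAH1 call ended without normoxia replicate 2 or hyperoxia replicate 1, 3 or 5 (adjusted p between 0.0521 and 0.0621) and without normoxia replicates 1 to 3 or 4 to 6 (0.11 and 0.0525). The coactivators EP300 and CREBBP did not pass, at log2 fold changes of -0.01 and -0.05, nor did HSP90AB1, at 0.05. Leaving out any of those 4 single samples left 1 gene called lower, RACK1.

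**Figure D5:**
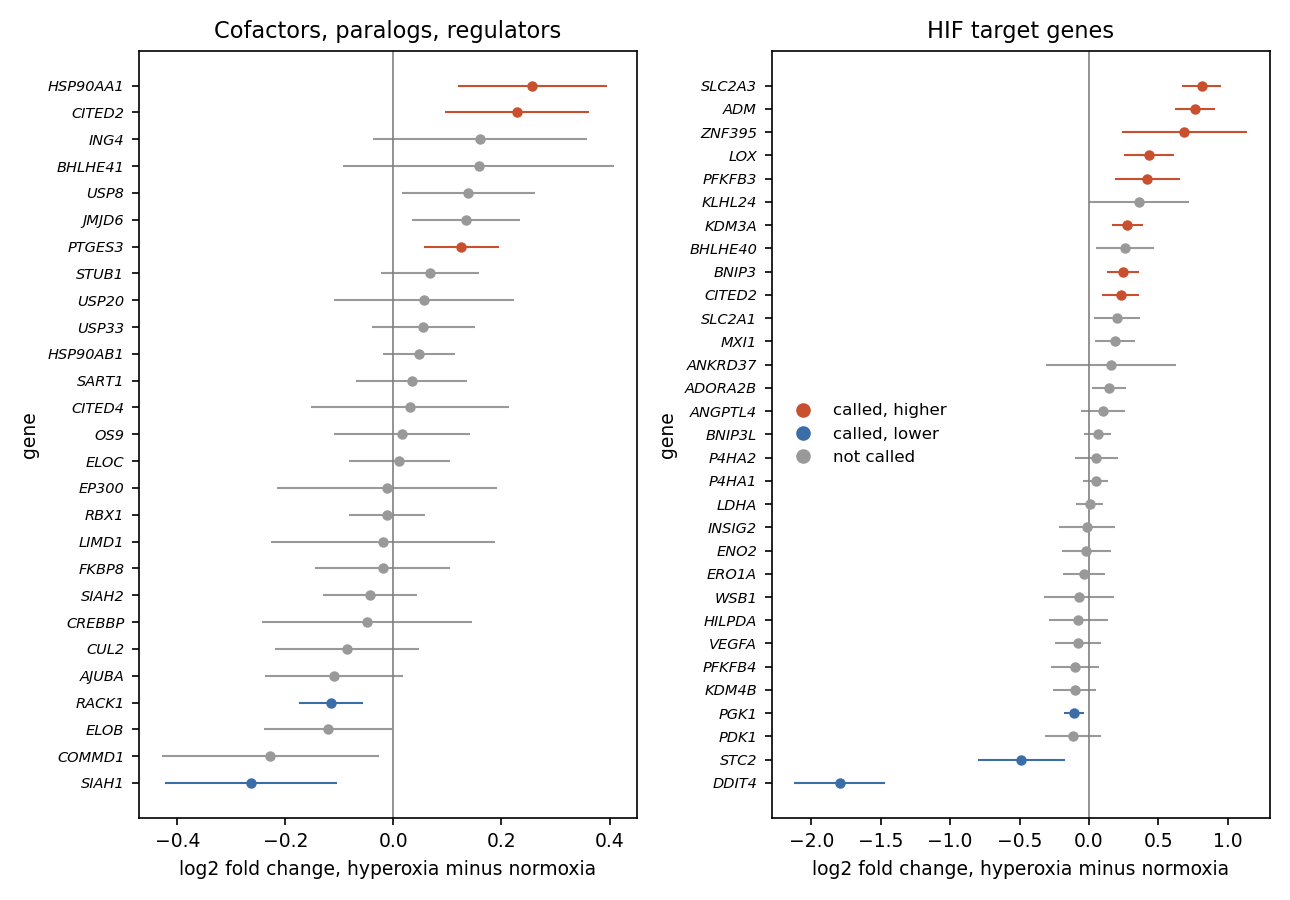
Log2 fold change of hyperoxia against normoxia (limma on log2(TPM + 1), points, with 95% intervals as bars) for tested genes of the list of HIF cofactors, paralogs and regulators (left) and of the list of HIF target genes without EGLN1 and 1 gene not drawn (right). Red marks genes called higher, blue genes called lower and grey the rest, and the horizontal scales of the panels differ. ENO2, whose deposited values disagree, is drawn on the right.

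The list of 40 HIF target genes shows what the HIF system drives elsewhere. Of 33 tested, 9 were called higher (27.3%, against 11.7% of all tested genes) and 3 lower (9.09%, against 5.63%), with a median log2 fold change of 0.10. The 33 include ENO2, whose deposited values disagree and which was not called. Without it 9 of 32 were called higher (28.1%) and 3 lower (9.38%), with a median of 0.12. The list was chosen with earlier results of these data known, so these shares are a description, and their difference was not tested. Those called higher included SLC2A3, a glucose transporter, from 11.6 ± 1.20 to 21.1 ± 0.98 TPM, and the peptide hormone gene ADM, from 15.8 ± 0.95 to 27.6 ± 2.87 TPM (SD, n = 6 each). The collagen-crosslinking enzyme LOX went from 5.87 ± 0.68 to 8.26 ± 0.92 TPM and the histone demethylase KDM3A, itself an oxygen-dependent enzyme, from 18.7 ± 1.15 to 22.9 ± 1.37 TPM. In all 4 of these genes the groups did not overlap, which held for 8.78% of all tested genes. They were named for their small p, so this separation follows largely from the choice.

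The genes called lower were DDIT4, from 140.3 ± 39.3 to 38.6 ± 3.96 TPM, with STC2 and PGK1, which are named because only 3 were called lower. Both lost their call without normoxia replicates 1 to 3 or 4 to 6, and DDIT4 did not (limma, Benjamini-Hochberg adjusted p = 0.148 and 0.103 for STC2, 0.191 and 0.0867 for PGK1). Both also lost it in the exact rank-sum test (adjusted p = 0.151 and 0.0799). Among single samples, STC2 lost its call without normoxia replicate 1, 2 or 5 or hyperoxia replicate 1, 2 or 4. PGK1 lost its call without normoxia replicate 2, 3, 5 or 6 or hyperoxia replicate 3, 4 or 6. VEGFA did not pass, and CA9, a target widely used to mark HIF activity, was listed at 0 in all 12 samples, as was NDRG1, which is named here on account of its values. The number called lower dropped to 1 without normoxia replicate 2, normoxia replicate 5 or hyperoxia replicate 4. Many of these genes are also driven by other factors, whose part in these values was not tested. EGLN1 and EGLN3 belong to this list too, and neither was called. CITED2, called higher, is on this list and on the cofactor list, and is counted in both.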

How the data were processed

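RNA of 6 normoxia and 6 hyperoxia samples was compared. Per the labels' design text, HTSeq 0.9.1 gave raw counts, and edgeR 3.16.5 served for normalisation; the submitters' processing notes name the same versions. These notes list a mouse build although the identifiers are human, so no coordinates come from the files. The aligner, the annotation and the TPM formula were not given in the sources used here. Per the file headers, the deposited values are TPM per sample and as group means; the deposited table adds the authors' fold change (a ratio), the log2 of it, and p-values before and after adjustment. The labels name a TruSeq kit and the design text a directional kit of another maker.

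Genes with a mean of at least 1 TPM were tested with limma 3.58.1 (R 4.3.3; lmFit, eBayes with trend) on log2(TPM + 1). Tests were two-sided, and p-values were adjusted by Benjamini-Hochberg over the 14520 genes and called under 0.05. Prolyl hydroxylase shares were compared by an exact permutation test, adjusted over 4 measures. The limma step was tested on simulated data. A gene's deposited values were taken to disagree when the log2 of the fold change missed the printed log2 by over 1e-06, or a group mean missed the mean of its columns by over 1e-04 TPM.

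The members and gene lists were chosen with earlier results of these data known, and no p-value is adjusted over them alone. Named genes are the 8 members, the 4 cofactor-list genes with the smallest p and the 4 with the highest mean, the 6 target genes with the smallest p, VEGFA and CA9, and the 3 genes most like a called member; those most like HIF1A are left out, and 1 of the target genes, included in the counts, is not reported here. Genes named beyond this rule were chosen after their values were seen, which holds for all further list members, overlapping genes and markers. Promoters are RefSeq's (GRCh38.p14) and coding stretches GENCODE 29's. The alternatives changed the pseudocount to 0.1, dropped the filter or raised it to 5 TPM, used median-of-ratios scaling or quantile normalisation, fitted without trend or with robust estimates, replaced limma by an exact rank-sum test, and added a replicate block; others were leaving out genes with disagreeing values and leaving out each sample. Leaving out normoxia replicates 1 to 3 or 4 to 6 was added after seeing the data.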

Additional observations from a re-analysis of the deposited data

How the results depend on the processing

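The samples share replicate numbers, but no label says that a number marks a shared culture or day, and same-numbered samples had deviations that correlated between -0.12 and 0.02. With the replicate block 2545 genes were called, against 2516 without it, EPAS1 kept its call (limma, Benjamini-Hochberg adjusted p = 0.0366), EGLN1 stayed short of it (adjusted p = 0.0513), and no member, list gene named by the rule or share changed sides of the threshold, while STC2 lost its call (adjusted p = 0.0636). Leaving out normoxia replicates 4 to 6 gave 1375 called genes and leaving out replicates 1 to 3 gave 1231. The number of members called higher was 0 without normoxia replicates 1 to 3 (2 at an unadjusted p under 0.05, limma) and 1 to 2 over the fits that left out a single sample; the number called lower was 0 without genes whose deposited values disagree (0 at an unadjusted p under 0.05, limma), since that setting removes HIF1A. Of the cofactor list, the number called higher was 1 with median-of-ratios scaling and 0 without normoxia replicates 4 to 6 (6 at an unadjusted p under 0.05, limma). The number lower was 0 with no filter (3 unadjusted, limma) and without normoxia replicates 1 to 3 (2 unadjusted, limma), 1 with quantile normalisation, without trend and without normoxia replicates 4 to 6, and 1 to 3 with a single sample left out. Of the HIF targets, 1 was lower with no filter, with the exact rank-sum test and without either set of 3 normoxia samples, and 1 to 3 with a single sample left out. With a single sample left out, the EGLN1 share differed by 0.826 to 1.38 percentage points and the EGLN2 share by -1.39 to -0.829. The minimum of 5 TPM leaves EPAS1 untested. The median log2 fold change of all tested genes was 0.03, -0.00 with median-of-ratios scaling and 0.01 after quantile normalisation. TPM keeps no depth, which limits what can be said of EPAS1 and EGLN3.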
